A study of Mus musculus with 6 samples.

Results

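Fatty acid synthesis and desaturation is described here through 10 mouse genes, measured in embryonic stem cells and in somatic cells of the fetal testis. The genes are Acly, Acss2, Me1, Acaca, Acacb, Fasn, Elovl5, Elovl6, Scd1 and Scd2. They were taken by name, as every array probe whose transcript identifier maps to one of these symbols. This rule uses no measured value, though the set was chosen with earlier results of these data known. They make up 10 of 19751 genes with a symbol on the array and 17 of 39429 gene probes. All 10 genes had a probe that could be tested, and 16 of their 17 probes were tested.

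The ESC group was VR15, an embryonic stem cell line of male origin with a Vasa::RFP transgene, a red fluorescent reporter named for a germ cell gene. Its 3 samples all came from this 1 line. The soma group held 3 samples of gonadal somatic cells from the genital ridges of male embryos at E13.5. Their background is MCH x C57BL6/J, with a GFP transgene that the labels spell Oct5<delta>PE-GFP. How the somatic cells were separated and how many embryos went into a sample are not given in the sources used here. Expression was measured on 6 Agilent arrays of 1 colour, with 1 array per sample. P-values take the samples of a group as biological replicates, which is what the labels call them.

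Fatty acids are built in the cytosol from acetyl-CoA. Citrate leaves the mitochondrion and ATP citrate lyase splits it to release acetyl-CoA, acetyl-CoA carboxylase turns that into malonyl-CoA, and fatty acid synthase joins malonyl units into palmitate with electrons from NADPH. Elongases of the endoplasmic reticulum then lengthen the chain and stearoyl-CoA desaturases place a double bond in it, which yields the monounsaturated acids of membranes and stored fat. In the liver, many of these genes are driven by the transcription factors SREBP and ChREBP. Growing cells need the pathway for membranes, and gonadal cells also draw on acetyl-CoA and NADPH to make steroids.

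Levels below are the log2 processed signal less the array's 75th percentile, so that 0 is the array's own 75th percentile and most probes lie below it. Such a level can be compared between arrays for 1 probe but not between probes. Differences are ESC minus soma on the log2 scale with their SE from limma, and a probe passed at a Benjamini-Hochberg adjusted p under 0.05 over all 24155 tested probes. A gene with several probes is counted by the brightest of those tested. Where only 1 group rose clear of background, the fold is given as a lower limit. The dim group is then held at or above a floor, the lowest level well above background on each array. Such a probe was tested through its bright group alone. Its p-value belongs to the fitted difference, which uses dim values near background, and not to the limit. The 75th percentile of signal was 958.8 to 1016 on the ESC arrays and 1245 to 1388 on the soma arrays. From 56% to 63.2% of an array's gene probes stood well above background, with none saturated. Across the tested probes, which are not independent replicates, Pearson's r lay at 0.993 to 0.995 for arrays of 1 group and at 0.789 to 0.802 for arrays of different groups.

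The labelled cell types were checked against marker genes. Of 7 stem cell markers, 6 were higher in ESC, among them Pou5f1 by 5.98 and Esrrb by 7.14, and Nanog was lower, at -1.5 (adjusted p = 0.00015, limma). All 5 Sertoli, 4 of 5 fetal Leydig (the other had no matched probe), 4 interstitial, 4 erythroid and 3 macrophage markers were lower in ESC, so the soma samples held several cell types and the difference between groups is one between a cell line and a mixture. In such bulk samples, fewer cells of a type and less RNA per cell cannot be told apart. Of 4 endothelial markers 2 were lower in ESC, 1 higher and 1, Kdr, did not pass by its brightest probe, while a dimmer Kdr probe differed by -4.09 (adjusted p = 2.51e-06, limma). Of 4 germ cell markers 2 were lower, 1 higher and 1 did not pass. Nanos2 was not well above background on any ESC array and was at least 16.2-fold lower in ESC. Its fitted difference was -6.32 (adjusted p = 1.31e-05, limma). Dazl differed by -2.06 (adjusted p = 0.00038, limma) and Dnd1 by 0.86 (adjusted p = 0.00673, limma), while Ddx4 did not pass, at 0.13 (adjusted p = 0.669, limma). The summed level of the 4 germ cell markers was 1.83 to 1.98 on the ESC arrays and 1.24, 1.72 and 2.22 on soma 1, 2 and 3. This sum gives most weight to Dnd1, the brightest of the 4, and does not measure how many germ cells a sample held. The summed level of the 4 erythroid markers was -3.19 to -2.93 on the ESC arrays and 9.23 to 9.33 on the soma arrays. The part that these other cells play in the results below was not tested. Of 6 adipocyte markers, Adipoq, Cidec, Lep and Retn were not well above background on any array. Plin1, the coat protein of lipid droplets that steroid-making cells also carry, was at least 39.6-fold lower in ESC. Its fitted difference was -7.56 (adjusted p = 2.14e-07, limma), and Fabp4 differed by -0.41 (adjusted p = 0.0247, limma).

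Promoters of 8 of the 10 genes were found in a RefSeq table of the GRCm38.p6 assembly, in 9 windows that run from 250 bases before the start of the gene to 50 after it. The windows of Acss2, Me1 and Fasn are shown as 3 of the genes lower in ESC, and that of Acly because it was higher and supplies the same acetyl-CoA. Elovl5 and Elovl6 were also lower in ESC, and their windows are not shown. Each is written 5′ to 3′ in the direction of the gene, with matches on either strand in capitals. The motifs searched were CCAAT, known as a binding site of NF-Y, GGGCGG, of the Sp1 family, CACGTG, of USF and ChREBP, TGACNNNGC, the core of the antioxidant response element, and TCACNCCAC, the sterol regulatory element bound by SREBP.
Acly, GRCm38.p6 chr11:100527951-100528250, minus strand: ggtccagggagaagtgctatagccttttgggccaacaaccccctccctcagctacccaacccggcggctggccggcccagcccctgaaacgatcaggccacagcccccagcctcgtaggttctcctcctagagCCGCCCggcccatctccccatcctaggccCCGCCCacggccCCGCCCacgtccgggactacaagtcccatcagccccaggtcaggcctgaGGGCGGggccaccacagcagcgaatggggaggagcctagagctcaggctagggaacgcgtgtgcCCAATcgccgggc
Acss2, GRCm38.p6 chr2:155517793-155518092, plus strand: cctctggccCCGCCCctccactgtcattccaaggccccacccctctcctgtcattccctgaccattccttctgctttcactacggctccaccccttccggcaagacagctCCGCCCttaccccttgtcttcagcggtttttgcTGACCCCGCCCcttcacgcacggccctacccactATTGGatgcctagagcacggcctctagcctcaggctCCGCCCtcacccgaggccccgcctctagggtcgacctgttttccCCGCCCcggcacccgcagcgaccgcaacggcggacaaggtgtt
Me1, GRCm38.p6 chr9:86695865-86696164, minus strand: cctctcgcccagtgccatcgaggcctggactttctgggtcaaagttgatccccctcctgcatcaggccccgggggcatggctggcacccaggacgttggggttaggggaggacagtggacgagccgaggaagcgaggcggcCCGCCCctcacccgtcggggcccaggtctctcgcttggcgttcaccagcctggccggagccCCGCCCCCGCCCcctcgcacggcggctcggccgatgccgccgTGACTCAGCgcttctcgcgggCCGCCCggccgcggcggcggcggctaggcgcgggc
Fasn, GRCm38.p6 chr11:120824498-120824797, minus strand: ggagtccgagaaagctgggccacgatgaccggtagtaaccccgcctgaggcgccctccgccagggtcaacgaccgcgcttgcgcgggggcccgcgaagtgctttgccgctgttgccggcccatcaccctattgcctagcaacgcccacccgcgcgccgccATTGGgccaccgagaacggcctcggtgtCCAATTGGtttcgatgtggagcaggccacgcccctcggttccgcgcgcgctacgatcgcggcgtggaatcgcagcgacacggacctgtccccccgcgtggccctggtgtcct

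The Acly window held 4 matches to GGGCGG and 1 to CCAAT, and the Acss2 window held 5 to GGGCGG and 1 to CCAAT. The Me1 window shown held 4 matches to GGGCGG. Another Me1 window, at a different start and not shown, held 1 match to CCAAT and no match to the other motifs. The Fasn window held 3 matches to CCAAT, of which 2 lie on opposite strands and share letters in the run CCAATTGG. TGACNNNGC was found once in the Me1 window shown, where it begins 6 bases before the start and runs across it. It was also found once in the Acss2 window, where it runs into a GGGCGG match. None of the 9 windows held the sterol element and 1, that of Elovl5, held CACGTG. The Elovl5 window also held 2 matches to CCAAT. The Acacb window held 1 match to CCAAT, and those of Acaca and Elovl6 held none of the motifs. Of all 32851 promoters in the table, 37.4% held CCAAT, 35.7% GGGCGG, 12.4% TGACNNNGC, 7.15% CACGTG and 1.24% the sterol element. A match is a run of letters and not a measured binding site, and a window with none says only that those letters are not in it.

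The 10 genes did not move as a block. Acly, Acaca, Acacb and Scd1 were higher in ESC and Acss2, Me1, Fasn, Elovl5, Elovl6 and Scd2 were lower, although the call for Acaca was lost or turned under other settings, given below with its values. In the same fit 86.8% of 14208 genes passed, 46.2% higher and 40.6% lower in ESC, so 10 of 10 passing is near the background and is no result about these genes. Of their 16 tested probes 15 passed, 6 higher and 9 lower, against 84.7% of all tested probes, 46.6% higher and 38.2% lower. The differences of 4 genes reached 2-fold, upward for Acacb and Scd1 and downward for Acss2 and Me1, against 49.1% of all genes in either direction. The ESC and soma arrays did not overlap for any of the 10, which held for 89.3% of all genes. The median difference of the 10 was -0.49, against 0.1 over all tested genes.

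**Figure D1:**
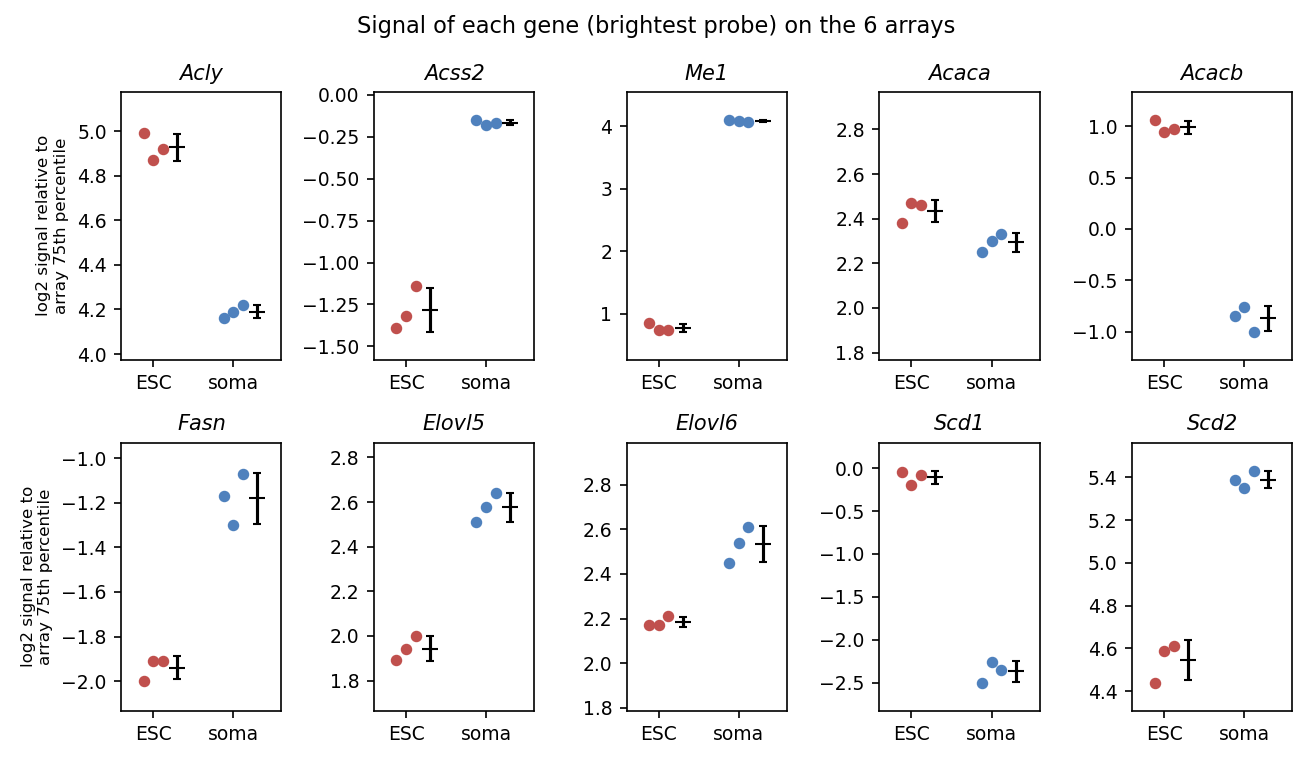
Signal of each of the 10 genes by its brightest tested probe on the 3 ESC arrays (red, left) and the 3 soma arrays (blue, right), as log2 signal relative to the array's 75th percentile. Each panel has its own vertical axis, and bars are the mean ± SD (n = 3). ESC and soma points are apart in all 10 panels, with the widest gap for Me1 at -3.31 and the narrowest for Acaca at 0.14.

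Among the genes that supply acetyl-CoA and NADPH, the 3 differed in direction. Acly encodes ATP citrate lyase, which makes cytosolic acetyl-CoA from citrate. Its brighter probe, A_55_P2025954, stood at 4.99, 4.87 and 4.92 on ESC 1 to 3 and at 4.16, 4.19 and 4.22 on soma 1 to 3. All ESC arrays were above all soma arrays, with means of 4.92 ± 0.06 in ESC and 4.19 ± 0.028 in soma (SD, n = 3 each). The difference was 0.73 ± 0.053 (SE), or 1.66-fold, with an adjusted p of 3.33e-05 (limma). A dimmer probe, A_55_P2082914, gave 0.74 ± 0.064 (adjusted p = 7.43e-05, limma). Under quantile normalization the brighter probe's difference was 0.16 and the dimmer one's 0.95, and with normexp the dimmer one's was 0.46, so the size for Acly depends on the treatment of the signal.

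Acss2, the cytosolic and nuclear acetyl-CoA synthetase that uses acetate, was lower in ESC. Probe A_55_P1988789 read -1.39, -1.32 and -1.14 on ESC 1 to 3 and -0.15, -0.18 and -0.17 on soma 1 to 3. The soma arrays lay within a narrow band and every ESC array lay below it. The means were -1.29 ± 0.13 in ESC and -0.17 ± 0.018 in soma (SD, n = 3 each), a difference of -1.12 ± 0.075 and a 2.17-fold change (adjusted p = 2.22e-05, limma). The other probe, A_55_P1988795, was well above background on 2 of 3 ESC arrays and differed by -0.96 ± 0.16 (adjusted p = 0.00167, limma), which normexp background correction brought to -0.33. Acly and Acss2, the 2 sources of cytosolic acetyl-CoA in the set, thus passed in opposite directions.

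Me1 had the largest difference of the 10. It encodes the cytosolic malic enzyme, which makes NADPH while turning malate into pyruvate. Probe A_55_P2009952 stood at 0.85, 0.74 and 0.74 on ESC 1 to 3 and at 4.1, 4.09 and 4.07 on soma 1 to 3. Arrays of a group differed by little more than 0.1 while the groups were more than 3 log2 units apart. The difference was -3.31 ± 0.053, 9.9-fold lower in ESC (adjusted p = 2.12e-07, limma), and 5.85% of tested probes had a lower difference. The other probes moved with it, A_55_P2016842 by -2.79 ± 0.053 (adjusted p = 3.03e-07, limma) and A_55_P2171413 by -3.74 ± 0.054, or 13.4-fold (adjusted p = 1.75e-07, limma).

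The acetyl-CoA carboxylases make malonyl-CoA, Acaca for synthesis in the cytosol and Acacb at the mitochondrial outer membrane, where malonyl-CoA restrains the entry of fatty acids for oxidation. Acacb was higher in ESC. Its probe A_55_P2019054 read 1.06, 0.94 and 0.97 on ESC 1 to 3 and -0.85, -0.76 and -1 on soma 1 to 3. Every ESC array was well above every soma array. The means were 0.99 ± 0.064 in ESC and -0.87 ± 0.12 in soma (SD, n = 3 each), a difference of 1.86 ± 0.079, or 3.62-fold (adjusted p = 3.28e-06, limma). Probe A_55_P2104532 read -3.99, -4.05 and -3.78 on ESC 1 to 3 and was not well above background on any soma array. Set against the floor described above, that probe was at least 2.53-fold higher in ESC. Its fitted difference was 3.04 (adjusted p = 8.83e-07, limma), and 0.96 with normexp background correction, which is a smaller fold than that limit.

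Acaca had the smallest difference of the set and its direction was not settled. Probe A_55_P2019058 read 2.38, 2.47 and 2.46 on ESC 1 to 3 and 2.25, 2.3 and 2.33 on soma 1 to 3. The lowest ESC array was just above the highest soma array. The difference was 0.14 ± 0.052, or 1.1-fold (adjusted p = 0.043, limma), which equals the median of 0.14 over all tested probes. It was -0.12 under quantile normalization (adjusted p = 0.0886, limma), -0.08 under scaling to the spike-in probes (adjusted p = 0.419, limma) and 0.34 under scaling to the array median (adjusted p = 0.00173, limma). The call was lost when any single array other than ESC 1 was left out, with differences and adjusted p of 0.13 and 0.113 without ESC 2, 0.13 and 0.12 without ESC 3, 0.12 and 0.141 without soma 1, 0.15 and 0.091 without soma 2, and 0.16 and 0.0508 without soma 3 (limma). A dimmer probe, A_55_P2121392, did not pass, at -0.19 ± 0.11 (adjusted p = 0.142, limma), and another, A_55_P2084703, lay below the background mark on all 6 arrays and was not tested.

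Fasn, the synthase that builds palmitate, was lower in ESC. Its 1 probe, A_52_P100252, read -2, -1.91 and -1.91 on ESC 1 to 3 and -1.17, -1.3 and -1.07 on soma 1 to 3. The groups did not overlap and the soma arrays spread more widely. The means were -1.94 ± 0.052 in ESC and -1.18 ± 0.12 in soma (SD, n = 3 each), a difference of -0.76 ± 0.076, or 1.69-fold (adjusted p = 0.00014, limma).

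Both elongases of the set were modestly lower in ESC. Elovl5 lengthens polyunsaturated chains, and its probe A_51_P505493 read 1.89, 1.94 and 2 on ESC 1 to 3 and 2.51, 2.58 and 2.64 on soma 1 to 3. The difference was -0.63 ± 0.059, or 1.55-fold (adjusted p = 0.000106, limma). Elovl6 turns palmitate into stearate, the substrate of the desaturases, and its probe A_51_P463440 read 2.17, 2.17 and 2.21 on ESC 1 to 3 and 2.45, 2.54 and 2.61 on soma 1 to 3. Neither gene's groups overlapped. The Elovl6 difference was -0.35 ± 0.06, or 1.27-fold (adjusted p = 0.00185, limma). Scaled to the array median it was -0.15 and did not pass (adjusted p = 0.0714, limma), and under quantile normalization it was -0.61.

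The stearoyl-CoA desaturases, which make oleate and palmitoleate, went in opposite directions. Scd1 is the main form in mouse liver and fat. Its probe A_52_P682382 read -0.05, -0.19 and -0.08 on ESC 1 to 3 and -2.5, -2.26 and -2.35 on soma 1 to 3. All ESC arrays were far above all soma arrays, with means of -0.11 ± 0.069 in ESC and -2.37 ± 0.12 in soma (SD, n = 3 each). The difference was 2.26 ± 0.078, or 4.8-fold higher (adjusted p = 1.57e-06, limma), and 91% of tested probes had a lower difference. Scd2 is known as a form of mouse brain and of the embryo. Its probe A_51_P129464 read 4.44, 4.59 and 4.61 on ESC 1 to 3 and 5.39, 5.35 and 5.43 on soma 1 to 3. Here the soma arrays were all the higher ones, with means of 4.55 ± 0.092 in ESC and 5.39 ± 0.038 in soma (SD, n = 3 each). The difference was -0.84 ± 0.064, or 1.79-fold lower in ESC (adjusted p = 4.01e-05, limma), and -1.46 under quantile normalization. The desaturase genes are close relatives, and whether their probes cross-hybridise was not tested.

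**Figure D2:**
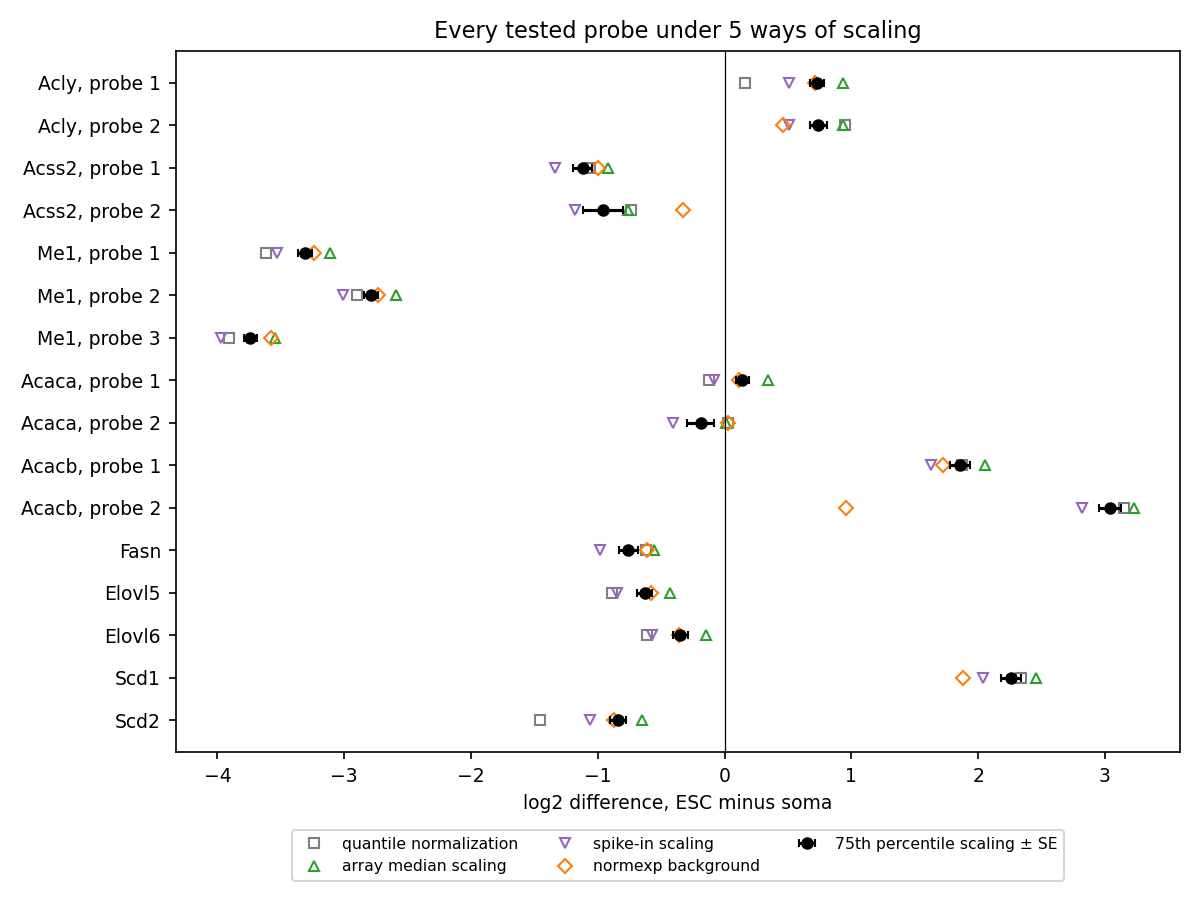
Log2 difference, ESC minus soma, of each of the 16 tested probes (rows), numbered within a gene by falling brightness. Black points with bars are the estimate ± SE at the 75th percentile scaling and open symbols are 4 other treatments of the signal. The 3 Me1 probes lie between -3.74 and -2.79 at the 75th percentile scaling, and the probes of all genes but Acaca keep their side of 0 under all 5 treatments.

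Of the 5 genes with several tested probes, 4 had probes that all passed in the same direction, and Acaca was the exception. With 84.7% of all tested probes passing, and this count not made for all genes, it is no result about these genes. Across the 10 genes the SD between arrays of a group was 0.024 to 0.13 in ESC and 0.013 to 0.12 in soma. ESC 1 to 3 and soma 3 lay on 1 slide and soma 1 and 2 on another. Against soma 3 alone, on the shared slide, the differences were 0.70 for Acly, -1.11 for Acss2, -3.29 for Me1, 0.11 for Acaca and 1.99 for Acacb. They were -0.87 for Fasn, -0.69 for Elovl5, -0.43 for Elovl6, 2.24 for Scd1 and -0.88 for Scd2. These come from a fit with the slide as a block, which sets ESC against 1 soma array, so its counts of passing genes are not given. The ESC arrays were scanned apart from both sets of soma arrays, and the effects of scan and group cannot be told apart.

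The other genes of the pathway were followed in 8 lists of 86 genes, of which 80 were tested. Of these, 41 were higher in ESC, 26 lower and 13 did not pass, with a median difference of 0.3. These counts are near the background of 86.8% of all genes passing, 46.2% higher and 40.6% lower in ESC, and are no result about the lists.

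**Figure D3:**
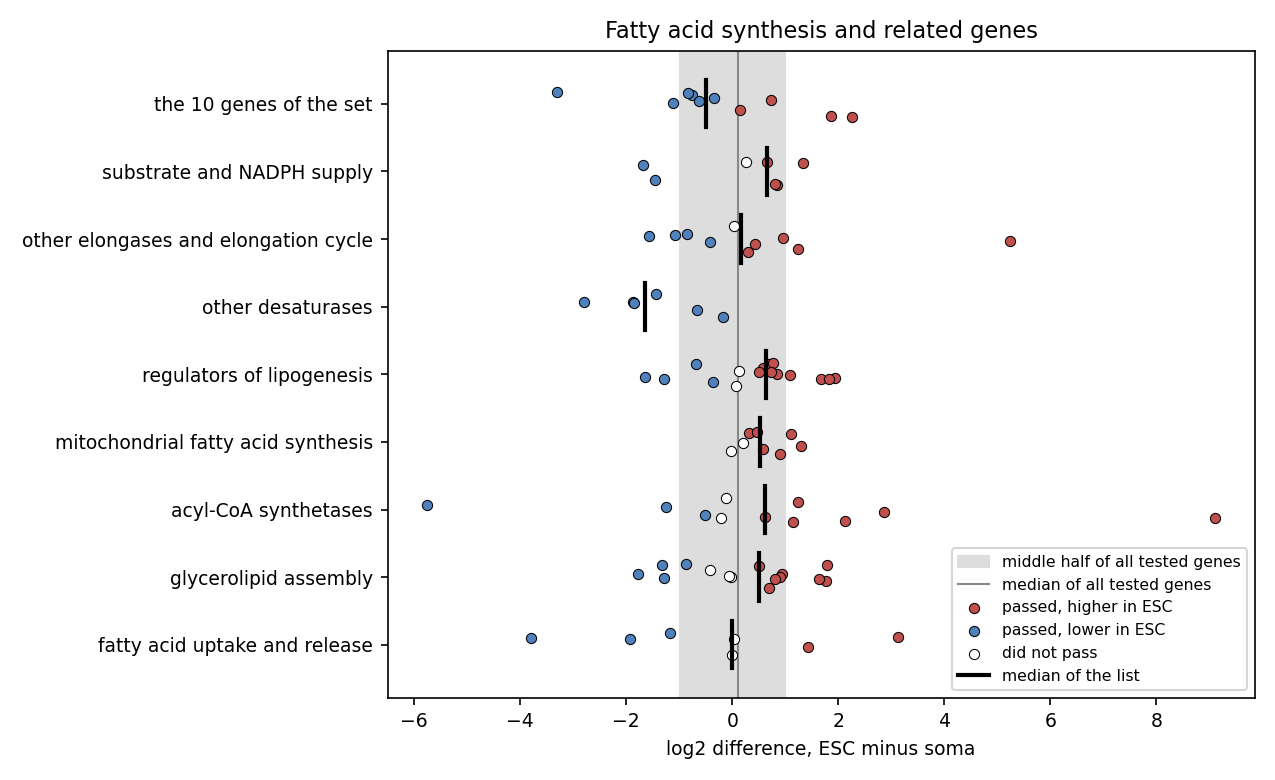
Log2 difference, ESC minus soma, of the tested genes in the set and in 8 related lists (rows), 1 point per gene by its brightest tested probe. Red points passed as higher in ESC, blue as lower, open points did not pass, thick bars are list medians and the grey band spans the 25th to 75th percentile of all tested genes, from -0.99 to 0.99. The other desaturases lie to the left, with a median of -1.65, and the regulators mostly to the right, with a median of 0.64.

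Of 7 tested genes of substrate and NADPH supply, 4 were higher in ESC, 2 lower and 1 did not pass, near the 86.8% of all genes that passed, with a median of 0.65. Slc25a1, the carrier that takes citrate out of the mitochondrion, read 2.59, 2.6 and 2.75 on ESC 1 to 3 and 1.3, 1.27 and 1.37 on soma 1 to 3. It was 2.52-fold higher in ESC, by 1.33 ± 0.065 (adjusted p = 5.66e-06, limma). Slc25a1 and Acly, which act one after the other on citrate, were thus both higher in ESC. Acss1, the mitochondrial acetyl-CoA synthetase, read 0.91, 0.9 and 0.95 in ESC and 2.59, 2.61 and 2.62 in soma, and differed by -1.69 ± 0.046 (adjusted p = 7.43e-07, limma). Both acetate-using synthetases that were tested, Acss1 and Acss2, were lower in ESC. Among NADPH sources, Idh1, the cytosolic isocitrate dehydrogenase, differed by -1.45 ± 0.058 (adjusted p = 2.63e-06, limma), and G6pdx, the entry enzyme of the pentose phosphate pathway, by 0.85 ± 0.06 (adjusted p = 2.74e-05, limma). Me1 and Idh1 were therefore lower and G6pdx higher in ESC.

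All 6 tested members of the list of other desaturases were lower in ESC, against 40.6% of all genes, with a median of -1.65. Among them the differences of Fads6 and Degs1 were small. Fads6 was at -0.66 (adjusted p = 0.0165, limma), or -0.24 with normexp, and was well above background on 2 of 3 ESC arrays. Degs1 was at -0.18 (adjusted p = 0.0122, limma), or 0.02 when scaled to the array median. Fads1, a front-end desaturase of polyunsaturated acids, read -0.64, -0.62 and -0.56 on ESC 1 to 3 and 1.25, 1.34 and 1.21 on soma 1 to 3, a difference of -1.87 ± 0.058 (adjusted p = 1.09e-06, limma). Fads2, which acts earlier in the same route, read -4.34, -4.54 and -3.91 in ESC and -2.41, -2.21 and -2.59 in soma, a difference of -1.86 ± 0.18 (adjusted p = 0.000138, limma), or -1.11 with normexp. The related Fads3 read -1.6, -1.43 and -1.42 in ESC and 1.32, 1.3 and 1.32 in soma, a difference of -2.79 ± 0.065, or 6.93-fold (adjusted p = 4.89e-07, limma). In Fads1, Fads2 and Fads3 the lowest soma array was more than 1 log2 unit above the highest ESC array. In Fads6 the lowest soma array was at -3.88 and the highest ESC array at -4.09. How many of all genes have so wide a gap was not counted. Scd3, a relative of Scd1 known from mouse skin glands, differed by -1.44 ± 0.19 on its brightest probe (adjusted p = 0.000552, limma). Its probes disagreed, since another was at least 2.38-fold higher in ESC and not well above background in soma. The fitted difference of that other Scd3 probe was 2.41 (adjusted p = 7.38e-05, limma), or 0.78 with normexp. Under quantile normalization and under scaling to the array median 5 of the 6 genes passed as lower.

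Of 16 tested regulators of lipogenesis, 10 were higher in ESC, 4 lower and 2 did not pass, against 46.2% higher and 40.6% lower among all genes, with a median of 0.64. Srebf1, whose protein drives the genes of fatty acid synthesis in liver, read -3.3, -3.42 and -3.36 on ESC 1 to 3 and -2.16, -2.15 and -1.89 on soma 1 to 3. It was lower in ESC, with a difference of -1.29 ± 0.091, or 2.45-fold (adjusted p = 2.78e-05, limma). Scap, the escort that carries SREBP proteins to the Golgi for cleavage, read 1.5, 1.52 and 1.5 in ESC and 3.14, 3.24 and 3.09 in soma, a difference of -1.65 ± 0.055 (adjusted p = 1.42e-06, limma). Srebf2, whose protein is best known for driving cholesterol synthesis, was on the other side, at 0.13, 0.1 and 0.17 in ESC and -0.53, -0.51 and -0.31 in soma, a difference of 0.58 ± 0.073 (adjusted p = 0.000438, limma). Srebf1 was thus lower and Srebf2 higher in ESC, so a gene that differs in either direction shares it with 1 of them. Such a match is no result. Whether these factors act on the genes of the set here was not tested.

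Mlxipl, which encodes the sugar-responsive factor ChREBP, was higher in ESC. It read -0.58, -0.3 and -0.32 on ESC 1 to 3 and -1.92, -1.79 and -2.53 on soma 1 to 3, with soma 3 the lowest. The difference was 1.68 ± 0.21, or 3.21-fold (adjusted p = 0.000388, limma). Its partner Mlx was higher in ESC by 1.08 (adjusted p = 1.36e-05, limma). Usf1, an E-box binding factor of lipogenic promoters, differed by 1.83 ± 0.068 (adjusted p = 2.04e-06, limma). Thrsp, a thyroid hormone responsive protein of lipogenic tissues, was at least 2.08-fold higher in ESC and was not well above background on any soma array. Its fitted difference was 1.94 (adjusted p = 9.99e-07, limma), and 0.76 with normexp.

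**Figure D4:**
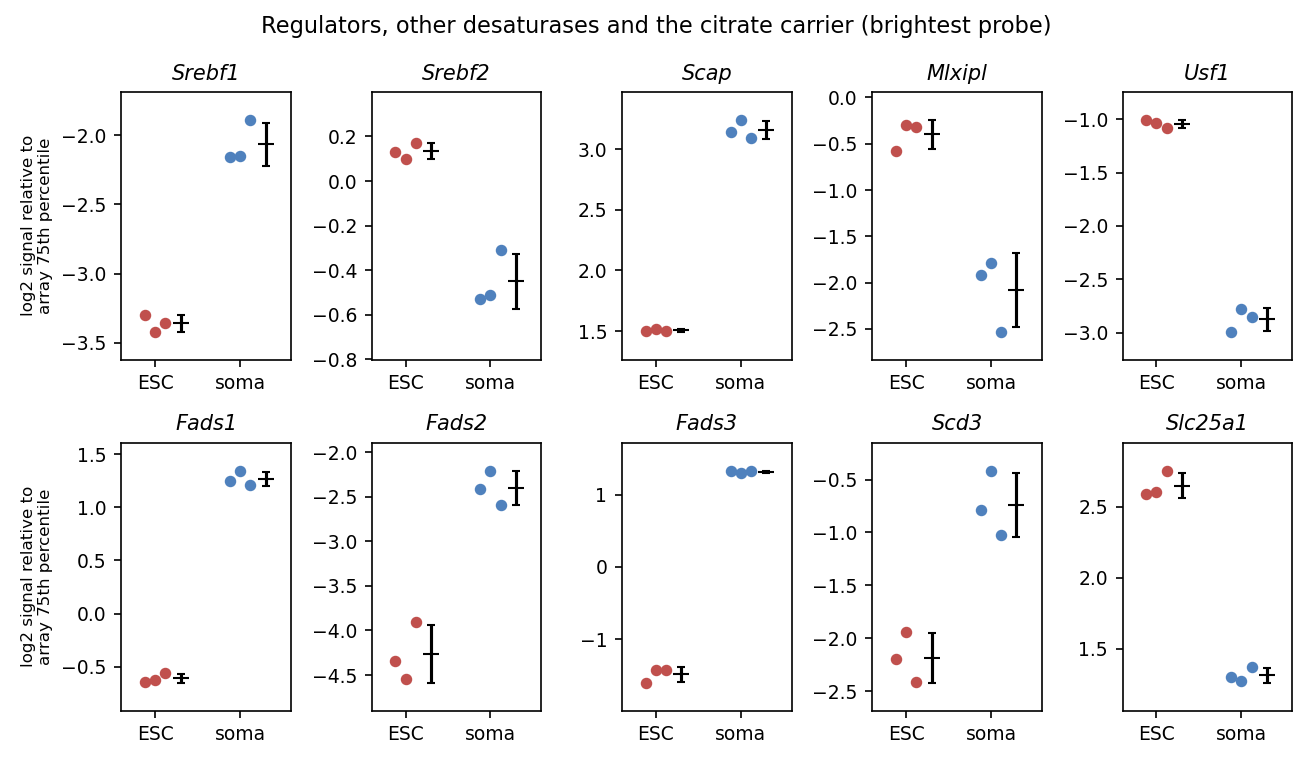
Signal of 5 regulators (upper row) and of 4 other desaturases and the citrate carrier gene Slc25a1 (lower row) on the 3 ESC arrays (red, left) and the 3 soma arrays (blue, right), as log2 signal relative to the array's 75th percentile. Each panel has its own vertical axis and bars are the mean ± SD (n = 3). Srebf1, Scap and the 4 desaturase genes are lower in ESC, and Srebf2, Mlxipl, Usf1 and Slc25a1 are higher.

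Of 10 tested genes of the other elongases and the elongation cycle, 5 were higher in ESC, 4 lower and 1 did not pass, against 46.2% higher and 40.6% lower among all genes, with a median of 0.17. Scaled to the spike-in probes, 3 were higher and 4 lower, with a median of -0.05. That scaling moved the whole array, to 9446 probes higher in ESC and 10470 lower, from 11250 and 9220. Elovl7, an elongase of saturated chains, read -0.63, -0.51 and -0.4 on ESC 1 to 3. It was not well above background on any soma array, which made it at least 25.6-fold higher in ESC. The fitted difference of Elovl7 was 5.23 (adjusted p = 3.97e-05, limma), and 3.03 with normexp. Of the dehydratases of the cycle, Hacd2 differed by 1.23 ± 0.055 (adjusted p = 3.91e-06, limma), Hacd3 by -1.09 ± 0.056 (adjusted p = 7e-06, limma) and Hacd4 by -1.58 ± 0.07 (adjusted p = 3.93e-06, limma), or -0.69 with normexp. Hacd4 was well above background on 2 of 3 ESC arrays, and a dim probe of Hacd2 went the other way, at -1.16. The direction was thus mixed in this list, while both elongases of the set itself, Elovl5 and Elovl6, were lower.

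The mitochondrion has its own fatty acid synthesis pathway, which makes the precursor of lipoic acid. Of its 8 tested genes, 6 were higher in ESC, 0 lower and 2 did not pass, against 46.2% higher and 86.8% passing among all genes, with a median of 0.53. Under quantile normalization and under scaling to the spike-in probes 5 were higher, with medians of 0.49 and 0.31. Scaled to the array median, 7 were higher. Lipt1, which transfers lipoyl groups, differed by 1.3 ± 0.089 (adjusted p = 2.44e-05, limma), and Mecr, the pathway's enoyl reductase, by 1.1 ± 0.063 (adjusted p = 1.12e-05, limma). Lias, the lipoic acid synthase, differed by 0.9 ± 0.055 (adjusted p = 1.45e-05, limma) and Cbr4, a subunit of the pathway's ketoacyl reductase, by 0.58 ± 0.06 (adjusted p = 0.000167, limma). The 2 that did not pass by their brightest probe were Oxsm, at -0.02 (adjusted p = 0.853, limma), and Acsf3, at 0.21 (adjusted p = 0.0682, limma). A dimmer probe of Oxsm was higher in ESC, by 1.31 ± 0.073 (adjusted p = 9.68e-06, limma), so its probes disagreed.

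Of 11 tested genes that activate fatty acids to acyl-CoA, 6 were higher in ESC, 3 lower and 2 did not pass, near the 86.8% of all genes that passed, with a median of 0.61. Scaled to the spike-in probes, 6 were higher and 5 lower, where 9446 of all tested probes were higher in ESC and 10470 lower. Slc27a2 read 2.56, 2.43 and 2.36 on ESC 1 to 3. It was not well above background on any soma array, which made it at least 212-fold higher in ESC. Slc27a6 was the reverse, not well above background on any ESC array and at -1.84, -1.3 and -1.4 on soma 1 to 3. It was at least 12.3-fold lower in ESC. These 2 members of 1 family of fatty acid transport proteins were thus each well above background in 1 group and not in the other. The fitted difference of Slc27a2 was 9.11 (adjusted p = 9.45e-07, limma), or 6.35 with normexp. That of Slc27a6 was -5.76 (adjusted p = 1.22e-06, limma), or -2.52 with normexp. Acsl6 was at least 2.08-fold higher in ESC, with a fitted difference of 2.86 (adjusted p = 1.64e-05, limma), or 0.98 with normexp. Slc27a5, the bile acid activating member known from liver, differed by 2.13 ± 0.14 (adjusted p = 2.29e-05, limma), or 1.17 with normexp, and had 2 of 3 soma arrays well above background.

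Of 15 tested genes of glycerolipid assembly, 8 were higher in ESC, 4 lower and 3 did not pass, against 46.2% higher and 40.6% lower among all genes, with a median of 0.5, or 0.1 under quantile normalization. Gpam, the mitochondrial enzyme of the first acylation step, was at least 3.06-fold lower in ESC. Its fitted difference was -1.78 (adjusted p = 3.21e-05, limma), or -0.68 with normexp. Gpat2, a relative known from male germ cells in mouse, read 1.42, 1.22 and 1.1 on ESC 1 to 3 and -1.14, -0.46 and 0.03 on soma 1 to 3, a difference of 1.77 ± 0.3 (adjusted p = 0.00166, limma). Its soma values had the same order as the summed germ cell markers given above, and their part in it was not tested. Lpin1, a phosphatidate phosphatase, differed by 1.79 ± 0.063 (adjusted p = 1.71e-06, limma), and the acyltransferase Agpat5 by 1.64 ± 0.049 (adjusted p = 9.96e-07, limma).

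Of 7 tested genes of fatty acid uptake and release, 2 were higher in ESC, 3 lower and 2 did not pass, against 86.8% of all genes passing, with a median of -0.01. Under quantile normalization 4 were lower and the median was -0.55, and with normexp 2 were lower. The fatty acid receptor Cd36 was at least 6.19-fold lower in ESC, with a fitted difference of -3.8 (adjusted p = 0.000107, limma), or -1.57 with normexp. Lpl, the lipase that frees fatty acids from lipoproteins, differed by -1.93 ± 0.061 (adjusted p = 1.16e-06, limma). Fabp3, a fatty acid binding protein known from heart, read 3.8, 3.91 and 4.16 on ESC 1 to 3 and 1.03, 0.76 and 0.7 on soma 1 to 3, 8.72-fold higher in ESC (adjusted p = 3.04e-06, limma). Pnpla2, the lipase that starts the breakdown of stored fat, differed by 1.43 ± 0.052 (adjusted p = 1.82e-06, limma).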

How the data were processed

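Expression was measured in 3 ESC and 3 soma samples on Agilent 1-colour arrays, labelled with Cy3 and with spike-in RNA per the labels' protocols. The deposited data come, per the file headers, from Feature Extraction 10.7.3.1, whose processed signal is an intensity corrected for background, with no scaling between arrays. The series matrix deposited by the authors holds log2 values, which equal log2 of that signal minus the 75th percentile of the array and the median of the probe, within 0.01 for 100% of 39414 probes. Its column medians were 0.161, -0.0879 and 0.0634 for ESC 1 to 3 and 0.055, -0.25 and -0.0654 for soma 1 to 3. It served as an alternative.

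From the processed signal, log2 values less each array's 75th percentile were taken, spots of a probe were averaged, and 1377 control spots and spots marked as outliers were left out (15 probe values). A probe was tested when well above background on every array of 1 group or both (24155 probes). ESC was compared with soma by limma 3.58.1 under R 4.3.3 (lmFit and eBayes, two-sided, all 6 arrays, Benjamini-Hochberg adjustment over all tested probes). Symbols came from matching transcript identifiers to a RefSeq gene table, for 66.1% of gene probes. Precision is limited by the number of arrays.

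The genes and lists were chosen with earlier results of these data known. In each related list the 4 largest differences that passed are given with values, and Srebf1, Srebf2, Mlxipl, Thrsp, Fads1, Fads2 and Slc25a1 always. Mlx, Oxsm, Acsf3, Fads6 and Degs1 were named after their values were seen. Hsd17b8 and Lipt2 had no matched probe, and Acss3, Elovl3, Scd4 and Degs2 had none that could be tested. Same-numbered ESC and soma arrays deviated from their group means with correlations of -0.04, 0.06 and 0.02 across probes, so the replicate numbers were not taken as pairs. Alternatives changed the scaling, background correction, filter on dim probes, block, variance model and number of probes per gene, and left out each array in turn.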

Additional observations from a re-analysis of the deposited data

How the results depend on the processing

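The counts passing in each direction among the 10 genes, the 86 related genes together and all probes stayed within 1.5 times their value under all 12 alternatives and all 6 fits that left out 1 array. Of the 8 related lists, set against the 4 other scalings and background corrections, 2 had a count that moved further, both under spike-in scaling. These were the other elongases, with 3 higher in ESC in place of 5, and the acyl-CoA synthetases, with 5 lower in place of 3. Under that scaling all tested probes went to 9446 higher in ESC and 10470 lower. Among single genes of the set, Acaca turned, and the cause was not tested. Its brighter probe was at -0.12 under quantile normalization and -0.08 under scaling to the spike-in probes, and its dimmer probe was at 0.03 under quantile normalization, 0.01 under scaling to the array median and 0.03 with normexp. The brighter probe also lost its call with normexp (0.11, adjusted p = 0.0674, limma), with no filter on dim probes (0.14, adjusted p = 0.122, limma), with the slide as a block (0.11, adjusted p = 0.234, limma) and with the replicate number as a block (0.14, adjusted p = 0.0738, limma). The dimmer probe passed under spike-in scaling, at -0.41 (adjusted p = 0.0395, limma). Elovl6 lost its call under scaling to the array median. The median difference of the 10 genes was -0.61 under quantile normalization, -0.29 under array median scaling, -0.71 under spike-in scaling and -0.47 with normexp, while the median over all probes moved by -0.1, 0.2, -0.22 and 0.01. Leaving out 1 array gave 3 to 4 genes of the set higher in ESC and 6 lower.

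The replicate numbers were not taken as pairs. With the replicate number as a block, 3 genes of the set were higher in ESC and 6 lower, and 11045 and 9095 of all probes, against 11250 and 9220 without the block. Normexp used median spot signals with an offset of 50, which shrinks differences of dim probes. Probes near background, such as the dimmer ones of Acacb and Acss2, are limited by it most.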
